A study of Mus musculus with 2 samples.

Results

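Fto and the AlkB homologs Alkbh1 to Alkbh8 were examined in MIN6 cells, a mouse insulinoma line with beta cell features, after lentiviral delivery of FTO or of the empty vector. The 9 genes were found by matching the RefSeq accession of each array probe to a gene symbol, and they were 9 of 20653 genes that could be named in this way. They were read by 12 probes, with 3 probes for Alkbh5, 2 for Alkbh7 and 1 for each other gene. All 12 probes were well above background on both arrays, a flag that the scanner software sets for each spot. Another 12193 probes could not be given a single symbol with the annotation used here, so further probes of these genes among them were not analysed here.

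The FTO-labelled array held RNA from MIN6 cells that received the virus of pLVX-IRES-ZsGreen carrying mouse FTO, and the control-labelled array held RNA from MIN6 cells that received the virus of pLVX-IRES-ZsGreen alone. Both cultures were at passages 15 to 20 and both vectors carried the green fluorescent reporter ZsGreen. Fluorescence was viewed 48 h after transduction in both, and the time of RNA extraction is not given in the sources used here. The treatment field of the former reads FTP overexpression, while its source names the mFTO vector. There was 1 one-color Agilent array per condition, from the same slide and scan, so differences between the arrays could not be checked against replicates and are given without p-values. The sources used here name no promoter for the transgene, no sorting of transduced cells and no clone, and in RNA from a whole culture a change in the share of transduced cells and a change of RNA per cell cannot be told apart.

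The proteins of this family are dioxygenases that use iron and 2-oxoglutarate, an intermediate of the tricarboxylic acid cycle. Many of them oxidize alkyl groups on nucleic acids or proteins so that the group is lost, and ALKBH8 instead hydroxylates a modified uridine of tRNA. FTO and ALKBH5 remove the methyl group of N6-methyladenosine (m6A) in RNA, and ALKBH2 and ALKBH3 repair alkylated bases, while the other members act on tRNA, proteins or substrates that are less well known. FTO is further known from variants of the human gene that are associated with body mass.

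Fto, the gene carried by the vector, was examined first. Its only probe (NM_011936) had an intensity of 7301 on the FTO-labelled array and 5179 on the control-labelled array before any normalization between arrays. The intensity was therefore 1.41 times as high on the FTO-labelled array, and the whole array was brighter, since the median of this ratio was 1.35 over 2783 probes within 0.5 of Fto on the mean log2 scale. After quantile normalization, which gives both arrays the same distribution of signals, Fto had a log2 signal of 12.62 on the FTO-labelled array and 12.55 on the control-labelled array. The log2 difference, always given as FTO minus control, was 0.06, a 1.05-fold difference.

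The precision of this value was judged by the error estimate of the software and by repeated spots. The scanner software estimates an error for each spot, which gave an error of 0.20 for the log2 difference of Fto, and for a bright spot this estimate is set almost wholly by a share of the signal that is the same for all bright spots. A narrower measure came from probes that are printed 10 times. In 134 of these with a mean log2 signal of 12 or more, the difference of one spot between the arrays had a median SD of 0.06, with SDs between 0.02 and 0.12. The difference of Fto is about the size of this SD and smaller than the spot error. Among the 2783 probes of like signal, 63.6% had a larger absolute difference than Fto, and the central 95% of differences ran from -0.32 to 0.30.

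The position of Fto within each array was compared next. Of all 39417 probes, 78.9% were dimmer than Fto on the FTO-labelled array and 78.4% on the control-labelled array. With quantile normalization Fto, the gene that the vector carries, was thus not higher on the FTO-labelled array by more than the spot error, and on these arrays every direction given here rests on the labels of the samples. The study examined FTO protein after lentiviral delivery by Western blot, which is not analysed here. The cloned cDNA ran from the start codon to the stop codon, and the spot tables give no position for the probe within the transcript. Whether this probe reads RNA made from the vector was not tested.

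**Figure D1:**
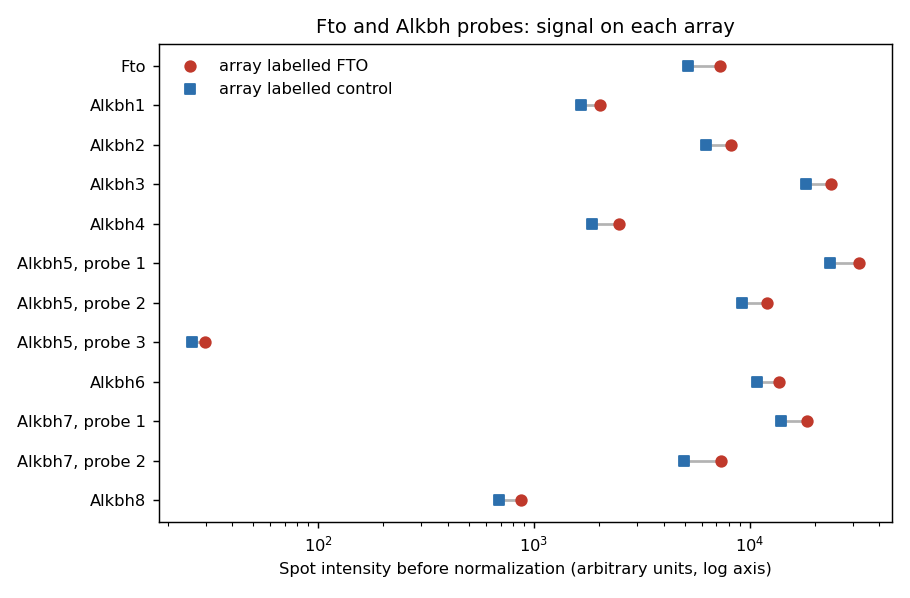
Intensity of the 12 member probes before normalization between arrays, on a log axis in arbitrary units, with a point for the FTO-labelled array and a square for the control-labelled array. Each probe was brighter on the FTO-labelled array, with ratios between 1.14 (Alkbh5, probe 3) and 1.48 (Alkbh7, probe 2).

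Before normalization all 12 member probes were brighter on the FTO-labelled array, by a median ratio of 1.30. The median ratio was 1.27 over all probes tested and 1.33 over those at least as bright as the dimmest member gene, so this shift is that of the whole array. After normalization the brightest probes of 3 genes (Fto, Alkbh4 and Alkbh5) had a difference above 0 and those of 6 genes had a difference below 0. The differences of the 9 genes ran from -0.11 to 0.06, with a median of -0.03 and an SD between genes of 0.06. For all 18513 named genes with a tested probe, the median was 0.01 and 51.6% lay above 0. Probes that passed the background flag on 1 array or both were counted as tested.

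No member gene differed by more than 2-fold, and none by more than 1.5-fold. Over all named genes tested, 2.68% passed 2-fold and 6.96% passed 1.5-fold, and over all tested probes 3.48% passed 2-fold. Most of those genes were dimmer than the members. Among the 10470 named genes at least as bright as Alkbh8, the dimmest member by its brightest probe, 0.162% passed 2-fold and 0.611% passed 1.5-fold. A count of 0 among 9 genes is thus near what the genes of such signal gave in general. The SD of the differences over these bright genes was 0.16, and 42.4% of them had an absolute difference larger than the largest of the member genes.

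**Figure D2:**
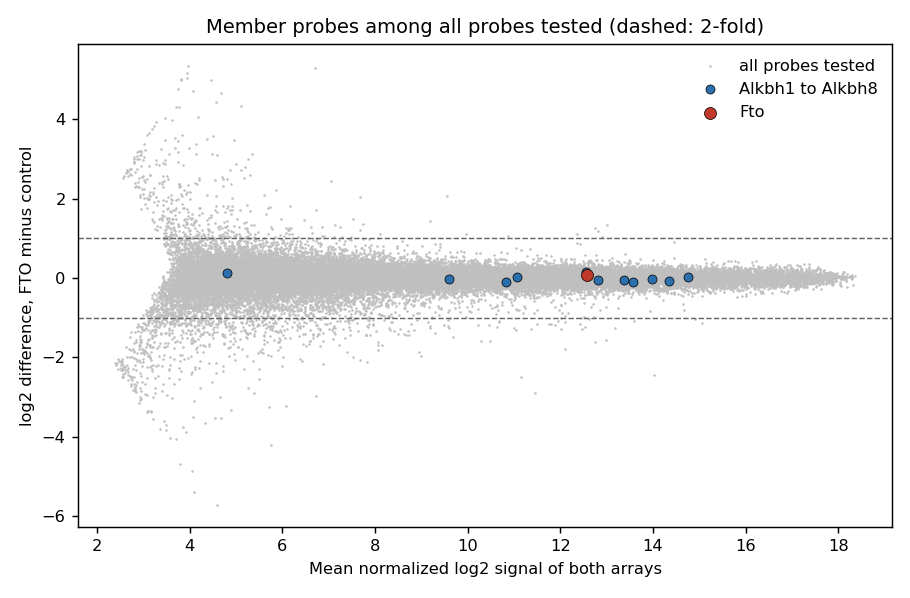
Log2 difference (FTO minus control) against the mean normalized log2 signal of both arrays, for all probes tested (grey), Fto (red) and the probes of Alkbh1 to Alkbh8 (blue), with dashed lines at 2-fold. The member probes lie between -0.11 and 0.15, inside the band of the other probes at every signal.

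ALKBH5 is the other enzyme of the family that removes the methyl group of m6A. Its brightest probe had intensities of 32189 on the FTO-labelled array and 23526 on the control-labelled array, with a log2 difference of 0.02 (spot error 0.20). The second probe had intensities of 12010 and 9242 on the same arrays and a difference of -0.05 (spot error 0.20). The third probe was dim, with intensities of 29.8 and 26.0 and a difference of 0.12 (spot error 0.28).

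All 3 Alkbh5 probes carry the same accession (NM_172943), and each difference was smaller than its spot error. The third probe was brighter than only 25.5% of probes on the FTO-labelled array and 24.4% on the control-labelled array, against 92.0% and 91.9% for the brightest Alkbh5 probe. Intensities of different probes are not compared as amounts of RNA, since probes differ in how well they bind. At the signal of the third probe the central 95% of differences ran from -0.99 to 1.02 over 3366 probes, so this probe could show only a large change. The bright probes had a range of -0.27 to 0.25 and of -0.29 to 0.27 over probes of their own signal.

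ALKBH2 and ALKBH3 oxidize the alkyl groups of damaged bases, the former mainly in duplex DNA and the latter in strands without a partner and in RNA. The probe of Alkbh2 (NM_175016) had an intensity of 8208 on the FTO-labelled array and 6292 on the control-labelled array. The log2 difference of Alkbh2 was -0.05 (spot error 0.20). The probe of Alkbh3 (NM_026944) had intensities of 23805 and 18348, with a log2 difference of -0.07 and a spot error of 0.20. Among probes of like signal, 71.9% had a larger absolute difference than Alkbh2 and 57.9% a larger one than Alkbh3. Both genes stayed within 2-fold, and their positions within the array moved by less than a percentage point, from 80.4% to 80.0% of probes dimmer for Alkbh2 and from 90.1% to 89.7% for Alkbh3.

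ALKBH1 and ALKBH8 act on tRNA, where ALKBH1 removes methyl groups and ALKBH8, which also has a methyltransferase domain, modifies the wobble uridine. The probe of Alkbh1 (NM_001102565) had intensities of 2018 on the FTO-labelled array and 1648 on the control-labelled array. Its log2 difference of -0.11 was the lowest of the 9 genes and still smaller than the spot error of 0.20. The probe of Alkbh8 (NM_026303) had intensities of 875 and 687 and a log2 difference of -0.03, with the same spot error of 0.20. The SD from the repeated probes was 0.06 at the signal of Alkbh1 and 0.07 at that of Alkbh8, so Alkbh1 lay beyond this SD and Alkbh8 did not. Of probes with like signal, 51.8% had a larger absolute difference than Alkbh1 and 87.3% a larger one than Alkbh8.

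ALKBH4 has been linked to the demethylation of actin, and ALKBH7 is a mitochondrial protein linked to cell death after DNA damage and to fat metabolism. The probe of Alkbh4 (NM_028070) had intensities of 2489 on the FTO-labelled array and 1860 on the control-labelled array, with a log2 difference of 0.03 and a spot error of 0.20. The brighter probe of Alkbh7 (NM_025538) had intensities of 18546 and 14025 and a log2 difference of -0.03 with the same spot error. The second Alkbh7 probe, of the same accession, had intensities of 7358 and 4960 and a log2 difference of 0.15.

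The 2 Alkbh7 probes thus differed in sign, by an amount within the spot errors of both. The second is the largest absolute difference among the 12 member probes, and 29.2% of 2766 probes of like signal had a larger one. It is also the only member spot inside 6 of 35 blocks of the array in which repeated probes had lost signal on the FTO-labelled array. In those blocks 29.0% of the repeated dim spots lay more than 0.5 under the median of their probe on the log2 scale, against 1.86% in the others. The blocks were chosen by a threshold on this same share, so the contrast follows from that choice. The share was taken from dim spots only, while the second Alkbh7 probe is bright. The difference of this probe was above 0, and the part of these blocks in its value was not tested.

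The probe of Alkbh6 (NM_198027) had an intensity of 13685 on the FTO-labelled array and 10813 on the control-labelled array. The log2 difference of Alkbh6 was -0.10 (spot error 0.20), and 41.2% of probes of like signal had a larger absolute difference. Set against the SD of repeated probes instead of the spot error, 5 of the 12 member probes lay beyond it, those of Fto, Alkbh1, Alkbh3 and Alkbh6 and the second Alkbh7 probe. The same SD was passed by 63.5% of 31754 tested probes printed once and by 68.6% of those at least as bright as the dimmest member gene, so the count of 5 does not set the members apart. None of the 12 lay beyond its spot error, beside 28.6% of all named genes tested. That share includes genes dimmer than the members, and it was not counted over genes of their signal alone. The SD of repeated probes covers the printing and reading of spots on these arrays only, without any spread between cultures, labelings or hybridizations.

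**Figure D3:**
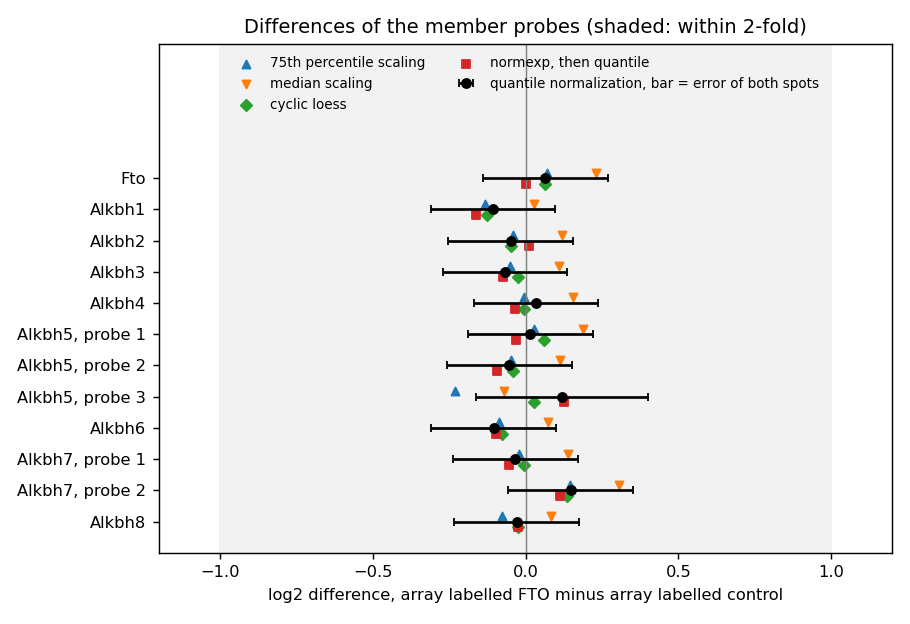
Log2 difference of each member probe (FTO minus control) after quantile normalization (black, bars give the error of both spots) and under 4 other ways of processing (colored marks), with the range within 2-fold shaded. Every mark lies within 2-fold, and median scaling lifts the 9 genes to values between 0.03 and 0.23.

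The direction of such small differences depended on the scaling. With the median of each array set equal in place of quantile normalization, the brightest probes of all 9 genes lay above 0, with a median of 0.12, while the median over all tested probes rose to 0.08. With the 75th percentile set equal, 2 of 9 genes lay above 0, the median of the genes was -0.04 and that of all tested probes was -0.08. The difference of Fto was 0.07 with the 75th percentile, 0.23 with the median, 0.06 with cyclic loess and 0.0007 with a normexp background correction. The value with the median was larger than the spot error of 0.20, and that scaling also put the median of probes in general above 0. The difference of Fto stayed above 0 in each, and no setting brought any member gene to 1.5-fold.

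Genes that work with or beside this family were taken from 4 lists, and by the brightest probe of each gene none of them, under quantile normalization or the other 4 scalings and corrections, held a gene with more than a 2-fold difference, against 2.68% of all named genes tested and 0.162% of those at least as bright as the dimmest member. Most genes of the lists are of such signal, so the latter share is the closer background for these counts of 0. As for the members, the numbers above and below 0 depended on the scaling, and with median scaling 17 of 19, 31 of 38, 15 of 17 and 14 of 16 genes of the lists, in the order given here, lay above 0. The writers and readers of m6A had 19 of 20 genes tested, with a median of 0.02. In this list 12 genes lay above 0 and 7 below, and 3 of the 19 differed by more than their spot error, beside 28.6% of all named genes tested. Here and for the other lists, that share includes genes dimmer than most genes of the lists. It was not counted over genes of like signal alone. Igf2bp2, which encodes a binding protein of methylated mRNA, had the highest difference at 0.32 (spot error 0.25), with dim intensities of 50.1 on the FTO-labelled array and 37.3 on the control-labelled array, and a difference of 0.0006 with the 75th percentile set equal. Ythdf3, a cytoplasmic reader, had intensities of 11161 and 6738 and a difference of 0.30 (spot error 0.20). A second Ythdf3 probe of the same accession, with intensities of 4241 and 3079, had a difference of 0.04 (spot error 0.20), and its spot lies in the blocks of lost signal on the FTO-labelled array. The second Igf2bp2 probe had a difference of 0.10 (spot error 0.34). The lowest were Zcchc4, which methylates ribosomal RNA, at -0.19, and Hnrnpc, an RNA binding protein, at -0.12. The spot of Igf2bp2 lies in a block of lost signal on the control-labelled array and that of Hnrnpc in one on the FTO-labelled array. A second Hnrnpc probe outside these blocks also had a difference of -0.12. The part of the block in the value of Igf2bp2 was not tested. Mettl3, the catalytic subunit of the m6A writer, had a difference of -0.11 (0.06 with median scaling), and its partner Mettl14 one of 0.16, each with a spot error of 0.20. The difference of Mettl14 was 0.29 with median scaling and 0.22 with normexp, both larger than its spot error.

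The other oxygenases that use iron and 2-oxoglutarate had 38 of 38 genes tested, 19 above and 19 below 0, with a median of -0.0043. Asph, which hydroxylates aspartate, was highest at 0.24, and Tet2, which oxidizes methylcytosine in DNA, followed at 0.23. The lowest difference was that of Tmlhe, an enzyme of carnitine synthesis, with intensities of 1358 on the FTO-labelled array and 1740 on the control-labelled array and a log2 difference of -0.74 (spot error 0.20). Its spot lies in the blocks of lost signal on the FTO-labelled array, whose part in this value was not tested. Bbox1, which catalyzes the last step of carnitine synthesis, followed at -0.53 (spot error 0.26), with intensities of 35.9 and 48.4 and a spot outside those blocks. The difference of this dim probe was -0.86 with the 75th percentile set equal and -0.16 with normexp. In 8 of the 38 genes the difference was larger than the spot error, beside 28.6% over all named genes tested, with the limit given above.

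Among 17 enzymes that make or consume 2-oxoglutarate, the median was 0.02, with 11 genes above 0 and 6 below. With quantile normalization Gpt2, the mitochondrial alanine aminotransferase, was the only one of the 17 beyond its spot error, beside the 28.6% of all named genes. Its intensities were 9456 on the FTO-labelled array and 9938 on the control-labelled array, against a brighter FTO-labelled array, and its log2 difference was -0.50 (spot error 0.20). Psat1, an aminotransferase of serine synthesis, followed at -0.15, and with the 75th percentile set equal it was at -0.26, beyond its spot error of 0.20. Ogdh, a subunit of the 2-oxoglutarate dehydrogenase complex, had a difference of 0.16, which was -0.08 with the 75th percentile set equal. Idh1 and Idh2, which make 2-oxoglutarate, had differences of 0.06 and 0.11.

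The last list held partners of the family, the wobble uridine pathway of ALKBH8 and other repair of alkylated bases. Of 16 genes, 10 lay above 0 and 6 below, with a median of 0.0029, and 1 of the 16 differed by more than its spot error, beside the same 28.6%. Ascc3, a helicase that works with ALKBH3, had the highest difference by its brightest probe, at 0.19, and Pcna, the sliding clamp, had 0.13, which was -0.06 with the 75th percentile set equal. A second and dimmer Ascc3 probe had intensities of 117 on the FTO-labelled array and 43.9 on the control-labelled array and a log2 difference of 1.26 (spot error 0.22), a 2.40-fold difference. The Ascc3 probes therefore do not agree. The second lies in the blocks of lost signal on the FTO-labelled array, and the part of these blocks in its value was not tested. Ctu1, an enzyme of wobble uridine thiolation in tRNA, was lowest at -0.13, and Mgmt, which takes up alkyl groups from guanine, followed at -0.10. The difference of Ctu1 was -0.0006 with median scaling. That of Mgmt was -0.29 with the 75th percentile set equal, beyond its spot error of 0.21. Trmt112, the partner of the methyltransferase domain of ALKBH8, had a difference of 0.0007. The spot of Mgmt lies in a block of lost signal on the control-labelled array and that of Trmt112 in one on the FTO-labelled array, and the part of these blocks was not tested.

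**Figure D4:**
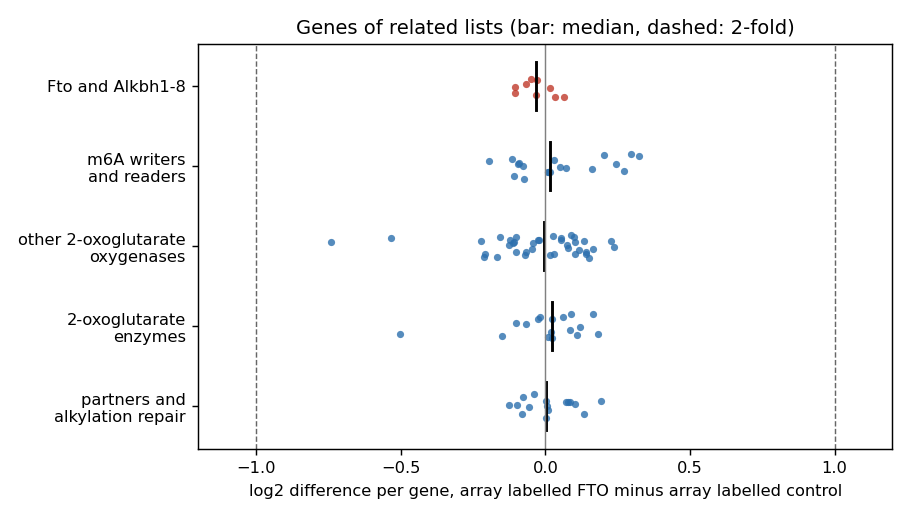
Log2 difference per gene (FTO minus control, brightest probe) for Fto and Alkbh1 to Alkbh8 and for the 4 related lists, with a point per gene, a bar at the median and dashed lines at 2-fold. All points lie within 2-fold, and the 9 member genes lie between -0.11 and 0.06.

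The line was checked against its markers. All 10 beta cell markers were well above background on both arrays, with intensities of at least 4567 on either array, Ins2 at 276722 on the FTO-labelled array and 320363 on the control-labelled array among them. Glucagon (Gcg) was also bright, at 257411 and 243558. Of markers of acinar and duct cells and of stroma, endothelium and blood, 8 of 9 had a probe. These 8 were also well above background on both arrays, so that flag alone does not set the beta cell markers apart. None of the 8 was above 1195 on the FTO-labelled array or 959 on the control-labelled array. Their part in the values of the members was not tested.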

How the data were processed

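RNA of 2 MIN6 cultures was measured on 1 one-color Agilent array each. The deposited spot tables give intensity values, processed for background and spatial trend by Feature Extraction 11.0.1.1 and not yet normalized between arrays. The authors also deposited a table of log2 values of 33870 probes, quantile normalized in GeneSpring. Here control spots and outlier spots (148 on the FTO-labelled array, 141 on the control-labelled array) were left out and no spot was saturated. Spots of a probe were averaged as log2 values and quantile normalization was run in R 4.3.3 (limma 3.58.1), while Python 3.11.15 served for the rest. A probe with repeated spots counted as well above background when at least 0.5 of its spots were. Probes were named through RefSeq accessions of the GRCm38.p6 annotation. The array header names mm9, so no coordinates are given. A gene was given the value of its brightest tested probe.

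The members, the 4 lists and the alternatives were chosen with earlier results of these data known. From each list the 2 highest and 2 lowest genes and any gene with a tested probe past 2-fold are named. Mettl3, Mettl14, Idh1, Idh2 and Trmt112 were added after their values were seen. The values of 1 gene that this rule names are not reported here. Alternatives were other scalings, cyclic loess, normexp, the table of the authors, other background filters and probe choices, the omission of blocks of lost signal and a 1.5-fold threshold. Values of single list and marker genes under the other scalings were added after the data were seen. The normalization and the 2-fold count were tested on simulated data. Precision is limited by the number of arrays, 1 per condition.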

Additional observations from a re-analysis of the deposited data

How the results depend on the processing

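Under 12 other settings no member gene passed the fold threshold and the difference of Fto lay between 0.0007 and 0.23, less than its spot error from the value reported. The number of member genes above 0 was 3 as reported, 9 with median scaling, and between 2 and 4 otherwise. The count of all tested probes past 2-fold was 1177 as reported. It was 132 with normexp on median intensities with an offset of 50, which shrinks the folds of dim probes, 491 when the background flag was required on both arrays, 2176 with no filter on background and 597 without spots in blocks of lost signal, and 2968 probes passed 1.5-fold. No filter added 1 writer or reader of m6A past 2-fold (Igf2bp1, not well above background on either array), taking the probe with the largest difference added 1 partner gene (Ascc3), and 1 of the other oxygenases passed 1.5-fold (Tmlhe). The remaining 243 of 252 values stayed within the spot error or within 1.5 times the count reported. Naming probes through a platform annotation was not run, since no such table was used here. No paired analysis was possible because each condition has 1 array. Dim signals limit the third Alkbh5 probe most.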

Other observations

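Of the 10 beta cell markers, 4 had a log2 difference above 0 and 6 below, with a median of -0.08. With median scaling 7 lay above 0 and 3 below, with a median of 0.07. With quantile normalization 2 lay beyond their spot error, Slc2a2 and Ins2, beside 28.6% of all named genes tested, a share that includes dimmer genes. Slc2a2, the glucose transporter of the beta cell, had intensities of 9476 on the FTO-labelled array and 5179 on the control-labelled array, with a log2 difference of 0.45 (spot error 0.20). Its difference lay between 0.38 and 0.61 under the other scalings and corrections, which were applied to these genes after the data were seen. Ins2 had a difference of -0.24, Iapp, which encodes amylin, of -0.19 and Ins1 of -0.14, each with a spot error of 0.20. These probes are among the brightest of both arrays, where the values depended on the scaling. With the 75th percentile set equal they were -0.64 for Ins2, -0.56 for Iapp and -0.46 for Ins1, and with normexp they were -0.32, -0.28 and -0.05. Mafa and Nkx6-1, transcription factors of beta cells, had differences of -0.16 and -0.12. Pdx1, a transcription factor of beta cell identity, had a difference of -0.03. The direction of Mafa, Nkx6-1 and Pdx1 depended on the scaling, while Ins2, Iapp and Ins1 lay below 0 under each scaling and correction. With median scaling the values were 0.0008 for Mafa, 0.06 for Nkx6-1 and 0.15 for Pdx1. Of 4 hormone genes of other islet cells, 2 had a difference above 0 and 2 below, with a median of -0.03. With the 75th percentile set equal 1 lay above 0 and 3 below, with a median of -0.14, and with median scaling the median was 0.02. Ppy had intensities of 14003 and 10872 with a log2 difference of -0.08, and Ghrl, which encodes ghrelin, had a difference of -0.12, each with a spot error of 0.20. The difference of Ppy was 0.10 with median scaling, and that of Ghrl was -0.22 with the 75th percentile set equal. Sst had intensities of 1834 and 1225 with a log2 difference of 0.19 (spot error 0.06 over 10 spots). Gcg, whose intensities stand beside those of the beta cell markers above, had a difference of 0.01, which was -0.35 with the 75th percentile set equal. None of these genes differed by more than 2-fold under any of these settings.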
